A study of Mus musculus with 9 samples.

Results

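Immediate early genes and heat shock genes were followed in developing mouse tendon cells through 42 genes chosen by name, of 18193 genes that had a probe set on the array. They comprise 31 immediate early genes, namely 7 subunits of the transcription factor AP-1, 12 other transcription regulators and 12 feedback and growth control proteins, and 11 heat shock proteins and co-chaperones. Cells came from forelimbs of Scx-GFP mouse embryos, which express green fluorescent protein under control of Scx, a tendon transcription factor, at embryonic (E) days E11.5, E12.5 or E14.5. All 3 stages carried the reporter, and no other allele or agent is named in the labels. Every sample went through trypsin dissociation and a sort of GFP-positive cells at room temperature on either of 2 sorter models, and which of them served which sample is not given. RNA was amplified and read on Affymetrix mouse arrays, with 3 arrays per stage, named A, B and C. No label says if a stage's arrays hold separate litters, so the p-values measure the spread between these samples, which may be technical, and the number of arrays limits the precision.

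Immediate early genes are switched on by incoming signals through proteins already present in the cell, without the synthesis of new protein, and many of their transcripts decay quickly. Serum response factor, bound at CArG boxes, and CREB, bound at cyclic AMP response elements, are known to drive several of them, and some of the products (Dusp1, Zfp36, Socs3, Nfkbia) shut the same signals down. Heat shock proteins fold newly made or damaged proteins, and heat shock factors, bound at repeats of GAA in alternating orientation, raise the inducible ones under stress. Growth factors, mechanical load, heat and the handling of cells are known to induce members of both groups in many tissues.

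A signal here is the deposited MAS5 intensity of 1 probe set per gene, on a linear scale, and signals of different genes are not compared. Changes are log2 values with their standard error (SE) from 1 limma fit of the 9 arrays, and a gene was called at a Benjamini-Hochberg adjusted p under 0.05 over the 11575 genes that passed a filter on low signals. Of the 42 genes 40 passed it. Fosl1, an AP-1 subunit, did not, with signals of 43.8 or less on the 9 arrays, and Nr4a3, an orphan nuclear receptor gene, did not either. All 8 tendon markers looked at were tested, and 7 of them rose at E14.5 against E11.5 while Scx fell by 0.81 (limma, adjusted p = 0.0164). The median signal over all probe sets was lowest on array A at each stage (68.7 to 118.5 over the 9 arrays), the 3′ to 5′ signal ratio of the Gapdh control ranged from 0.717 to 0.831, and that of the Actb control, from 1.27 to 1.53, was lowest on array A at each stage. Wherever 3 values are given for a stage, they are those of arrays A, B and C in that order.

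**Figure D1:**
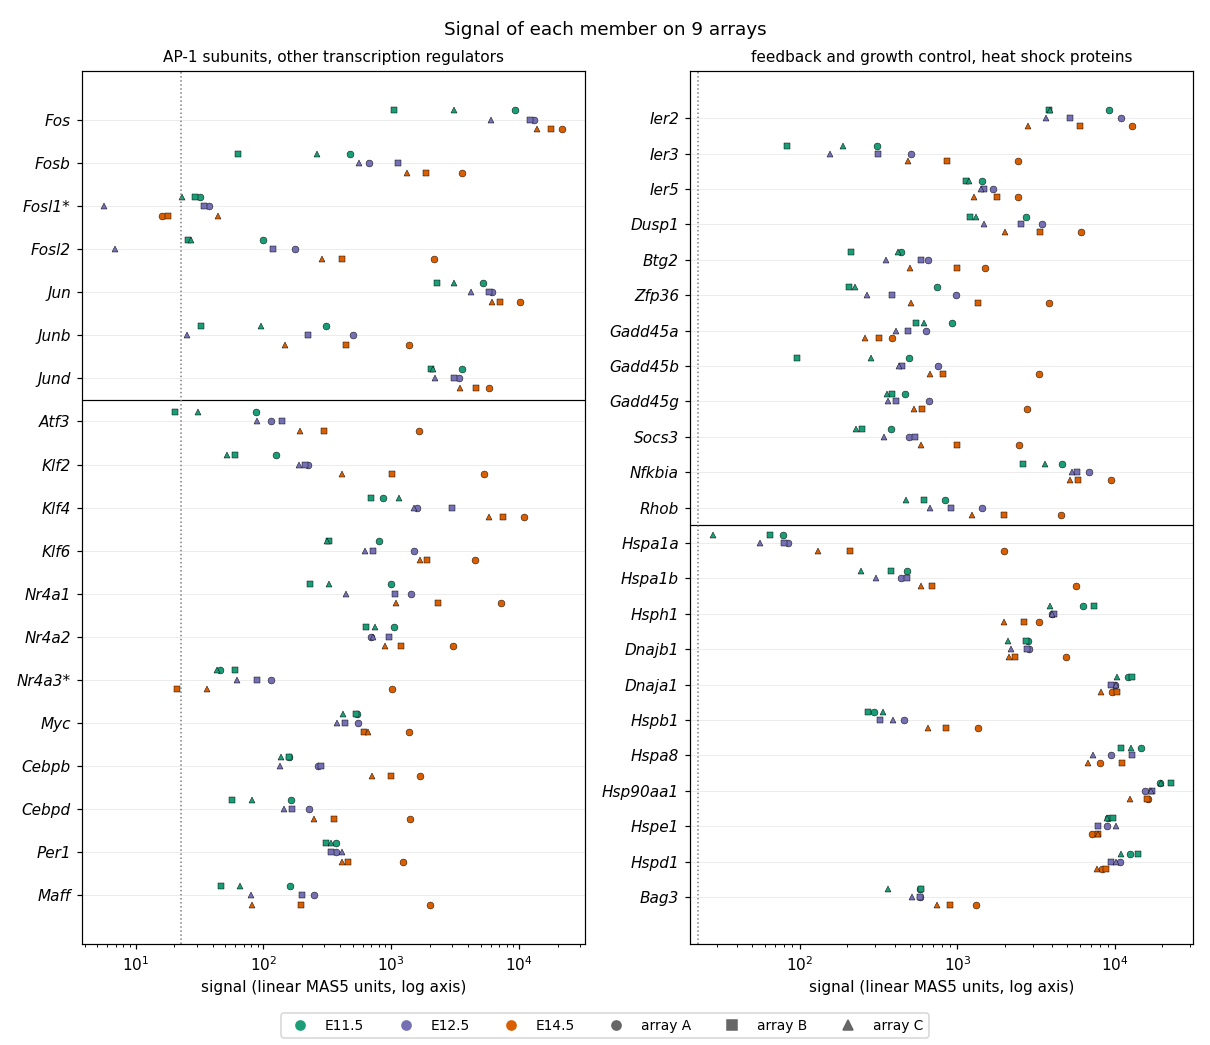
Signal of each of the 42 genes on 9 arrays (x axis: linear MAS5 units on a log axis), with stages as colours and arrays as symbols; the dotted line is the floor of 22.7 applied before log2 transformation, and an asterisk marks the 2 genes that were not tested. The circles, array A, lie to the right of the other arrays of their stage for most immediate early genes.

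Of the 29 tested immediate early genes 18 rose and 1 fell at E14.5 against E11.5, and of the 11 heat shock genes 3 rose and 3 fell. Over the 40 tested genes this made 21 that rose and 4 that fell, where 22.9% of all genes tested rose and 17.7% fell. The 21 were Fos, Fosb, Fosl2, Jun and Jund among the AP-1 subunits, Atf3, Klf2, Klf4, Klf6, Nr4a1, Cebpb and Cebpd among the other regulators, Ier3, Btg2, Gadd45b, Socs3, Nfkbia and Rhob among the feedback genes, and Hspa1a, Hspb1 and Bag3. Those that fell were Gadd45a, Hsph1, Hsp90aa1 and Hspd1. The median change was 1.51 over the 40 genes, 2.03 over the 29 tested immediate early genes and -0.29 over the 11 heat shock genes, against 0.0035 over all genes tested. The F-test over the 3 stages called 19 of the 40, against 33.7% of all genes. Signals of the 2 stages did not overlap for 24 genes that were higher and 6 that were lower at E14.5, against 27.3% and 24.1% of all genes. Quantile normalization turned the balance over all genes, with 2220 higher and 2753 lower calls against 2646 and 2045 as deposited, while 20 of the 40 rose and 4 fell. The samples hold many cells each, so fewer cells that express a gene and less RNA per cell cannot be told apart.

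The difference was smaller without array E14.5 A. Then 16 of the 21 genes still rose (20.5% of all genes), the median change was 0.92, and Jund, Nr4a1, Btg2, Gadd45b and Nfkbia were no longer called. The 4 genes that fell were called without it too (15.5% of all genes). Without the A arrays of all 3 stages, 22 genes rose (18.3% of all genes), 19 of them among the 21 (Btg2 and Bag3 did not), and 2 fell (10.9%), the falls of Hsp90aa1 and Hspd1 being no longer called. With any single array left out 18 of the 25 calls held. With the array letter as a replicate block 29 genes rose and 4 fell, where 2895 and 2367 of all 11575 genes did.

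**Figure D2:**
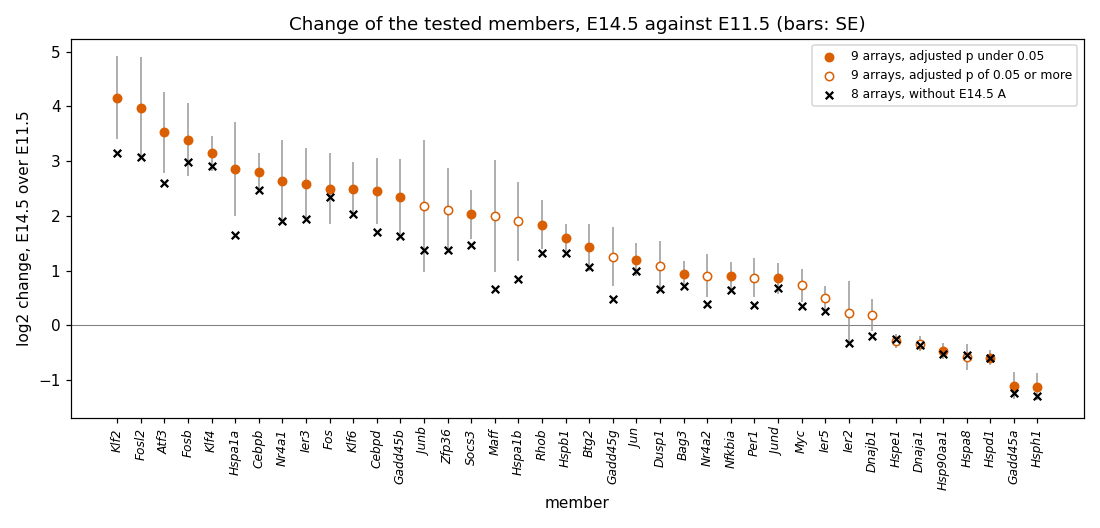
Log2 change of the 40 tested genes, E14.5 over E11.5, with the SE of the fit of 9 arrays; filled circles passed an adjusted p of 0.05 and crosses give the change without array E14.5 A. The 25 called genes run from 4.16 for Klf2 to -1.12 for Hsph1, and the crosses lie below the circles for most genes with a positive change.

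Of the AP-1 genes, whose products pair as Fos-Jun dimers on TGANTCA sites, 5 of the 6 tested rose at E14.5 against E11.5 (22.9% of all genes). Their median change was 2.34. Fos had signals of 9249, 1058 and 3071 at E11.5, 13036, 12248 and 6043 at E12.5 and 21832, 17899 and 13836 at E14.5. Its lowest E14.5 array lay above its highest E11.5 array, and the E11.5 arrays themselves differed by 8.75-fold, with A high and B low. The change was 2.50 ± 0.65 (SE, adjusted p = 0.0132). Fosb, a close relative of Fos, had 473, 63.0 and 261 at E11.5, 675, 1132 and 564 at E12.5 and 3601, 1881 and 1320.1 at E14.5 and changed by 3.39 ± 0.66 (adjusted p = 0.00324). In this gene the 3 stages did not overlap at all, and E11.5 B was again far below A and C. With any 1 array left out the calls of Fos and Fosb held, with changes of 1.72 to 3.28 for Fos and 2.56 to 4.02 for Fosb, lowest without E11.5 B and highest without E11.5 A.

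Fosl2, which encodes Fra-2, had signals of 99.0, 25.5 and 27.0 at E11.5, 176, 119 and 6.89 at E12.5 and 2175, 413 and 289.8 at E14.5. It was high on the 3 E14.5 arrays and low on those of E11.5, with E12.5 C below the floor of 22.7, and it changed by 3.97 ± 0.93 (adjusted p = 0.00808). A second Fosl2 probe set, looked at after the values were seen, differed: it changed by -0.14, with an adjusted p of 0.83 in a fit of every probe set. With any 1 array left out, Fosl2 changed by 3.08 (without E14.5 A) to 4.61 and stayed called. Jun, the main partner of Fos, had 5180.5, 2296 and 3072 at E11.5, 6198, 5805 and 4208 at E12.5 and 10233, 7088 and 6129 at E14.5 and rose by 1.20 ± 0.31 (adjusted p = 0.0119), with no overlap between E14.5 and E11.5. Jund, which is present in resting cells, had 3598, 2032 and 2121 at E11.5, 3405, 3104 and 2189.6 at E12.5 and 5774, 4589 and 3475 at E14.5 and rose by 0.86 ± 0.28 (adjusted p = 0.0326), although E14.5 C lay below E11.5 A. The call did not hold without E14.5 A, which gave 0.68, E14.5 B (0.84), E11.5 B (0.71, adjusted p = 0.107) or E11.5 C (0.74).

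Junb, which can oppose Jun at some targets, was the most variable of the 40 genes within stages. Its signals were 311, 32.7 and 96.0 at E11.5, 499.5, 222 and 25.4 at E12.5 and 1376, 445 and 148 at E14.5, so that A was high and the lowest array 9.52, 19.7 and 9.28 times lower at the 3 stages. The change of 2.18 ± 1.20 was not called (adjusted p = 0.178), and the stages overlapped. Only the replicate block of array letters called it (adjusted p = 0.04).

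Among the other transcription regulators, 7 of 11 tested genes rose at E14.5 against E11.5 (22.9% of all genes) and none fell (17.7%). Their median change was 2.49. Among them the Krüppel-like zinc finger gene Klf2 changed the most of the 40 genes. Klf4, a relative of it and one of the factors that can reprogram cells to pluripotency, had 863, 694 and 1152 at E11.5, 1577, 2986 and 1513 at E12.5 and 10887, 7522 and 5813 at E14.5. Its stages did not overlap, its arrays within a stage lay within 1.97-fold, and it rose by 3.14 ± 0.32 (adjusted p = 7.83e-05), the lowest p of the 40 genes. Klf2, known as a flow-responsive gene of endothelium, had 125, 59.6 and 51.7 at E11.5, 222, 213 and 188 at E12.5 and 5318, 1009 and 410.4 at E14.5. It rose by 4.16 ± 0.76 (adjusted p = 0.00223), and E14.5 A was 13.0 times E14.5 C. Klf6, which can restrain growth, had 802, 328 and 314 at E11.5, 1514, 723 and 618 at E12.5 and 4548, 1915 and 1668 at E14.5 and rose by 2.49 ± 0.50 (adjusted p = 0.00361). Array A was the high one of each stage for Klf6, and E14.5 and E11.5 did not overlap. With any 1 array left out, the 3 calls held, with changes of 2.90 to 3.36 for Klf4, 3.15 to 4.99 for Klf2 and 2.04 to 2.93 for Klf6, each lowest without E14.5 A. The other tested probe sets of Klf4 and Klf6 changed by 2.37 to 3.45.

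Cebpb and Cebpd encode leucine zipper factors of the acute phase and of fat cell formation. Cebpb had 159, 157 and 137 at E11.5, 265, 279.7 and 136 at E12.5 and 1685, 994 and 701 at E14.5 and rose by 2.81 ± 0.34 (adjusted p = 0.000237). Its E11.5 arrays lay within 1.15-fold of each other and all E14.5 arrays were at 701 or more. Cebpd had 165, 56.3 and 81.8 at E11.5, 227, 167 and 144 at E12.5 and 1414, 358 and 251 at E14.5 and rose by 2.46 ± 0.60 (adjusted p = 0.00953), with E14.5 A far above the others. Atf3, a stress-induced factor of the same leucine zipper class, had 87.9, 20.4 and 30.8 at E11.5, 115, 139 and 89.0 at E12.5 and 1636, 300.2 and 193 at E14.5 and rose by 3.53 ± 0.74 (adjusted p = 0.00459). Its signal on E11.5 B was below the floor of 22.7. For both Cebpd and Atf3 the E14.5 arrays were above all E11.5 arrays, and without E14.5 A the changes were 1.71 and 2.61, both still called.

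Nr4a1 and Nr4a2 encode orphan nuclear receptors. Nr4a1 had 999, 231 and 326 at E11.5, 1432, 1077 and 442 at E12.5 and 7179, 2337 and 1086 at E14.5. It rose by 2.64 ± 0.75 (adjusted p = 0.019), with A high at each stage, and the call did not hold without E14.5 A (1.91), E11.5 B (2.20) or E11.5 C (2.45). Nr4a2 had 1058, 634 and 741 at E11.5, 697, 952 and 725 at E12.5 and 3056, 1199.7 and 899 at E14.5. Only E14.5 A stood apart in Nr4a2, whose change of 0.91 ± 0.40 was not called (adjusted p = 0.0979) except without E14.5 C (1.27, adjusted p = 0.0319). The untested Nr4a3 had 46.0, 60.0 and 43.0 at E11.5, 114, 89.4 and 62.3 at E12.5 and 1009, 20.9 and 36.3 at E14.5, so that it was above 114 on the single array E14.5 A.

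Maff, a small Maf protein without a transactivation domain, had 161, 46.7 and 65.7 at E11.5, 249, 200.4 and 80.0 at E12.5 and 2018, 195 and 80.9 at E14.5. Its change of 2.00 ± 1.02 was not called (adjusted p = 0.148): E14.5 A was 24.9 times E14.5 C, and the other E14.5 arrays lay within the E12.5 range. Without E14.5 C it was called (2.99, adjusted p = 0.0388), and without E14.5 A the change was 0.67. Maff was called with the replicate block too (2.00, adjusted p = 0.0358). Per1, a repressor of the circadian clock, had 367, 311 and 339 at E11.5, 369.6, 340.5 and 414 at E12.5 and 1245, 459.8 and 415 at E14.5. E14.5 A was likewise high in Per1, the 2 other E14.5 arrays lay close to the earlier stages, and the change of 0.87 ± 0.35 (adjusted p = 0.0752) was called only without E14.5 C (1.16). Myc, the growth factor-responsive regulator of cell growth, changed by 0.73 ± 0.30 (adjusted p = 0.0785). Myc was called without E14.5 B (0.95), with a trended and robust prior (adjusted p = 0.0468) and with the replicate block (adjusted p = 0.0239).

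Promoter sequences are shown for 3 immediate early genes whose RefSeq windows (mouse build GRCm38.p6, 250 bases before to 50 after the gene start, both strands searched) held a named element. Of the 42 genes 36 had a window in that table of 27025 genes. A CArG box was found in Zfp36, against 1.81% of all genes with a window, TGACGTCA in Btg2, Dusp1 and Maff (2.03%), TATAAA in 7 genes, Fos among them (15.7%), and TGANTCA in Bag3 (8.97%). A match describes these letters in these windows and no more. The 150 bases before the start follow, 5′ to 3′ on the gene's strand, with the element in capitals: the TATAAA of Fos (chr12:85473740-85473889, plus strand), the CArG box of Zfp36 (chr7:28379229-28379378, minus strand) and the TGACGTCA of Dusp1 (chr17:26508473-26508622, minus strand).
Fos: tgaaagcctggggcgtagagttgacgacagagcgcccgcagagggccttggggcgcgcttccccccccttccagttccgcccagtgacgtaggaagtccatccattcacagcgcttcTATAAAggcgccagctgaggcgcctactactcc
Zfp36: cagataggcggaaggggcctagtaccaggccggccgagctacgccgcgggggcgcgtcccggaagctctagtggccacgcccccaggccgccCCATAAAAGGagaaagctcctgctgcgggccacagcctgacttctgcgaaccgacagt
Dusp1: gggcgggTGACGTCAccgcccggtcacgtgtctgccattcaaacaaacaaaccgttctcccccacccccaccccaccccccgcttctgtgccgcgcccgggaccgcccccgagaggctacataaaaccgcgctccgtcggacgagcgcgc

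Among the 12 feedback and growth control genes, all tested, 6 rose (22.9% of all genes) and 1 fell (17.7%) at E14.5 against E11.5. Their median change was 1.34. Dusp1, a phosphatase that inactivates MAP kinases, had 2719, 1206 and 1320.3 at E11.5, 3446, 2519.7 and 1487 at E12.5 and 6132, 3341 and 2020.2 at E14.5. Its arrays ran A, B, C from high to low at E12.5 and E14.5, the stages overlapped, and the change of 1.09 ± 0.46 was not called (adjusted p = 0.0886). It was called without E14.5 C (1.47) or E11.5 A (1.46), and with the 3′ to 5′ signal ratio as a covariate (0.95, adjusted p = 0.0453). The replicate block of array letters called it too (1.09, adjusted p = 0.00359). Zfp36, or tristetraprolin, which speeds the decay of AU-rich mRNAs, had 741, 204 and 223 at E11.5, 984, 388 and 268 at E12.5 and 3813, 1361 and 512 at E14.5. It had the same order of arrays at E12.5 and E14.5, and its change of 2.10 ± 0.77 lay just outside the threshold (adjusted p = 0.0536). It was called without E14.5 C (2.82), E12.5 A (2.10), E11.5 A (2.70) or all 3 A arrays (1.97, adjusted p = 0.0182). Other settings of the floor, the scaling and the covariate also called it (1.86 to 2.10), as did the replicate block (2.10, adjusted p = 0.000795).

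Socs3, an inhibitor of cytokine receptor signalling, had 381, 249 and 226 at E11.5, 494, 541 and 341 at E12.5 and 2481, 989 and 591 at E14.5. Its E14.5 arrays were above all others, with A the high one, and it rose by 2.03 ± 0.45 (adjusted p = 0.00636). Nfkbia, the inhibitor that holds NF-kappa-B in the cytoplasm, had 4591, 2629 and 3617 at E11.5, 6854, 5770.2 and 5343 at E12.5 and 9477, 5803 and 5204 at E14.5. It rose by 0.90 ± 0.26 (adjusted p = 0.0213), its E12.5 arrays were already above those of E11.5, and the call did not hold without E14.5 A (0.64) or E11.5 B (0.69). Of 5 tested Nfkbia probe sets, which changed by 0.70 to 1.07, 2 were called in the fit of every probe set. Rhob, a small GTPase of endosomes, had 837, 611 and 475 at E11.5, 1431, 912 and 671 at E12.5 and 4532, 1991 and 1236 at E14.5 and rose by 1.84 ± 0.45 (adjusted p = 0.00985). The arrays of Rhob ran A, B, C from high to low at all 3 stages. With any 1 array left out Socs3 changed by 1.46 to 2.50 and Rhob by 1.33 to 2.27, both still called and both lowest without E14.5 A.

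Ier3, which protects cells from apoptosis in several settings, had 308, 83.7 and 188 at E11.5, 505, 314 and 156 at E12.5 and 2433, 863 and 486 at E14.5 and rose by 2.57 ± 0.66 (adjusted p = 0.0122). A was high at each stage, and E14.5 did not overlap E11.5. Its change lay between 1.94 and 3.10 with any 1 array left out, lowest without E14.5 A, and stayed called. Btg2, an antiproliferative gene, had 438, 210.4 and 421 at E11.5, 653, 588 and 354 at E12.5 and 1501, 998 and 503 at E14.5 and rose by 1.43 ± 0.43 (adjusted p = 0.0242). That call did not hold without E14.5 B (1.36), E14.5 A (1.07) or E11.5 B (1.08). A second Btg2 probe set changed by 1.60 and was not called in the fit of every probe set (adjusted p = 0.0909). Ier2, a nuclear protein of the same early wave, had 9173, 3791 and 3846 at E11.5, 10922, 5199 and 3649 at E12.5 and 12788, 5983 and 2807 at E14.5. The spread within each stage, 2.42-fold to 4.56-fold, was larger than the difference between stages, and the change was 0.23 ± 0.59 (adjusted p = 0.788) and -0.32 without E14.5 A. Ier5, known to act with heat shock factor HSF1, changed by 0.50 ± 0.22 (adjusted p = 0.0988). Ier5 was called without E14.5 C (0.74), with the mean of its probe sets (0.86, adjusted p = 0.0239) and with the replicate block (adjusted p = 0.0365).

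The Gadd45 genes, known as growth arrest and DNA damage genes, did not move together. Gadd45a had 925, 549.6 and 613 at E11.5, 636, 484 and 410.5 at E12.5 and 386, 317 and 258 at E14.5, with all E14.5 arrays below all E11.5 arrays, and fell by 1.101 ± 0.24 (SE, adjusted p = 0.00607). Gadd45b had 494, 96.5 and 283 at E11.5, 751, 447 and 427 at E12.5 and 3314, 810.3 and 669.9 at E14.5. It rose by 2.35 ± 0.68 (adjusted p = 0.0213), which did not hold without E14.5 A (1.63) or E11.5 B (1.70). Gadd45g had 465, 387 and 356 at E11.5, 665, 409.7 and 363 at E12.5 and 2769, 593 and 532 at E14.5. Its E14.5 arrays were all above those of E11.5, by far the most on A, and its change of 1.26 ± 0.54 was not called (adjusted p = 0.0941). It was called without E14.5 C (1.68) and, with a smaller change, without the 3 A arrays (0.60, adjusted p = 0.0346). A fit with the replicate block called Gadd45g as well (1.26, adjusted p = 0.0267).

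For the heat shock genes, the motif GAANNTTC, a pair of heat shock factor units, was found in the windows of 10 of the 36 genes, 8 of them heat shock genes (Bag3, Dnaja1, Hspa1a, Hspa1b, Hspb1, Hspd1, Hspe1 and Hsph1) and the others Fosl2 and Jun, against 9.04% of all genes. The longer GAANNTTCNNGAA, which contains it, was found in Hspd1, Hspe1 and Hsph1, against 0.662% of all genes. The genes shown are those whose signals are set side by side here. Hspd1 and Hspe1 start 215 bases apart on opposite strands of chromosome 1 and share everything between them (chr1:55087933-55088147, plus strand, which runs from Hspd1 to Hspe1), where the capitals mark 2 overlapping matches to GAANNTTCNNGAA. For Hspa1a (chr17:34972157-34972306, minus strand), Hspa1b (chr17:34959239-34959388, minus strand) and Hspb1 (chr5:135887769-135887918, plus strand), the capitals mark GAANNTTC in the 150 bases before the start. Over 250 bases before their starts Hspa1a and Hspa1b are identical at 247.
Hspd1 and Hspe1: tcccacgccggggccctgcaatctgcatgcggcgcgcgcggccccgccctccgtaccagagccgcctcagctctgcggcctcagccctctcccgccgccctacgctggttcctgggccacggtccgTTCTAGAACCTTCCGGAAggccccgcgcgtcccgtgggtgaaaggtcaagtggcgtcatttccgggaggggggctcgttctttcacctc
Hspa1a: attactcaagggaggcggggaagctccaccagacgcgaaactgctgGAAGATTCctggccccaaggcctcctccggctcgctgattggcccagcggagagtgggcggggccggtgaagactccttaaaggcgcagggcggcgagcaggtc
Hspa1b: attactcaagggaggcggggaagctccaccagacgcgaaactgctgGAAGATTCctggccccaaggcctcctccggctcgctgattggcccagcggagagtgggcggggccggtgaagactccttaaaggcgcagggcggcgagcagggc
Hspb1: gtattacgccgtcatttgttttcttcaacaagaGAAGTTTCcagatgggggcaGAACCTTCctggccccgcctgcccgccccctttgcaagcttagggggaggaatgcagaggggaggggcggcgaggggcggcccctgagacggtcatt

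Of the 11 heat shock genes, all tested, Hspa1a, Hspb1 and Bag3 rose at E14.5 against E11.5, and Hsph1, Hsp90aa1 and Hspd1 fell. Over all genes tested 22.9% rose and 17.7% fell. Hspa1a, an inducible member of the Hsp70 family, had 78.1, 64.7 and 28.0 at E11.5, 83.8, 79.9 and 55.8 at E12.5 and 1989, 208 and 129.9 at E14.5. The 3 E14.5 arrays were above all others, and E14.5 A was 15.3 times E14.5 C. The change was 2.86 ± 0.86 (adjusted p = 0.0247) and 1.66 without E14.5 A, and it was not called without E11.5 C (2.41, adjusted p = 0.0791) or E11.5 B (3.01, adjusted p = 0.0504). Hspa1b, its neighbour and near-identical copy, had 478, 381 and 243 at E11.5, 439.6, 482 and 306 at E12.5 and 5642, 691 and 589 at E14.5. It showed the same high array E14.5 A, 9.58 times E14.5 C, and the change of 1.90 ± 0.73 was not called (adjusted p = 0.0627). It was called without E14.5 B (2.37), without E14.5 C (2.48) and without the 3 A arrays (1.07, adjusted p = 0.0372), with the floor at the median of all signals (1.90, adjusted p = 0.0474) and with median centring of each array (1.70, adjusted p = 0.0296). Hspa1b was also called with the replicate block (1.90, adjusted p = 0.0267). Probes for one of Hspa1a and Hspa1b can bind the transcript of the other, so their signals may not be separate.

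Hspb1, the small heat shock protein that binds unfolding proteins and actin filaments, had 297, 271 and 337 at E11.5, 457, 325 and 393 at E12.5 and 1354, 853 and 656 at E14.5. Its stages E14.5 and E11.5 were apart on every array, and it rose by 1.60 ± 0.25 (adjusted p = 0.000978). A second probe set changed by 1.89. Bag3, a co-chaperone that links Hsp70 proteins to autophagy, had 577, 591 and 365 at E11.5, 583, 577 and 516 at E12.5 and 1311, 905 and 741 at E14.5 and rose by 0.94 ± 0.24 (adjusted p = 0.0125). Its lowest E14.5 array was above its highest E11.5 array.

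Of the heat shock genes that fell, Hspd1, the mitochondrial chaperonin gene, had 12479, 14042 and 10863 at E11.5, 10837, 9486 and 10151 at E12.5 and 8281, 8755 and 7727 at E14.5 and fell by 0.59 ± 0.14 (SE, adjusted p = 0.00755), with the E14.5 arrays below all others. Hspe1, its co-chaperonin on the other side of the shared promoter, changed by -0.29 ± 0.13 (adjusted p = 0.107) and was not called, with E14.5 also below E11.5 on all arrays. Hsp90aa1, the stress-responsive cytosolic Hsp90, had 19326, 22553 and 19702 at E11.5, 15443, 17186 and 16910.0 at E12.5 and 16273, 16043 and 12534 at E14.5 and fell by 0.46 ± 0.14 (adjusted p = 0.0281). Without E14.5 C (-0.34), E11.5 C (-0.49) or E11.5 B (-0.39) it was not called. Its other tested probe sets changed by -0.86 and -0.59 (adjusted p = 0.00314 and 0.067 in the fit of every probe set). Hsph1, a nucleotide exchange factor of the Hsp70 family, had 6255, 7376 and 3875 at E11.5, 4009, 4082 and 3994 at E12.5 and 3289, 2651 and 1992 at E14.5 and fell by 1.12 ± 0.25 (adjusted p = 0.00627). The 3 E12.5 arrays of Hsph1 lay within 1.02-fold of each other, and E14.5 was below both earlier stages.

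The constitutive Hspa8 changed by -0.58 ± 0.24 (adjusted p = 0.0887), called without E14.5 B alone (-0.77). The J-domain co-chaperones of Hsp70 were not called, Dnaja1 with -0.33 ± 0.14 (adjusted p = 0.0861, and 0.036 with a trended and robust prior) and Dnajb1 with 0.19 ± 0.29 (adjusted p = 0.635). Dnajb1 had 2825, 2726 and 2112 at E11.5, 2834, 2761 and 2192 at E12.5 and 4928, 2329.8 and 2125 at E14.5, so that E14.5 A was the high array here too, and without it the change was -0.19.

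**Figure D3:**
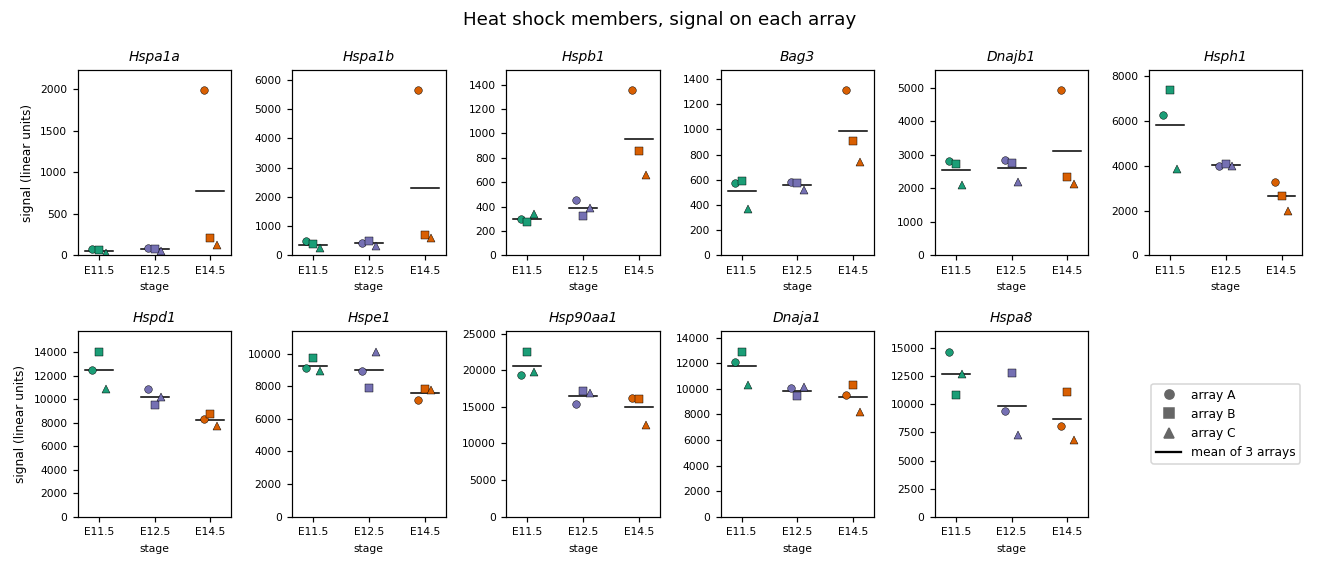
Signal of the 11 heat shock genes on each array by stage (y axis: linear MAS5 units from 0; symbols: arrays; line: mean of 3 arrays). Hspa1a and Hspa1b are high on E14.5 A, Hspb1 and Bag3 on all E14.5 arrays, and Hsph1 and Hspd1 are lower at E14.5 than at E11.5 on every array.

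Between the 2 later stages fewer genes passed the test. In E14.5 against E12.5, 6 genes rose and none fell, where 12.6% of all genes rose and 9.32% fell. In limma 19 of the 40 genes had an unadjusted p under 0.05, against 4160 of all 11575 genes tested. The 6 were Klf4 (2.02 ± 0.32, adjusted p = 0.00245), Cebpb (2.29 ± 0.34, 0.00182), Hspb1 (1.23 ± 0.25, 0.00829), Klf2 (2.65 ± 0.76, 0.0342), Fosl2 (3.03 ± 0.93, 0.0453) and Bag3 (0.78 ± 0.24, 0.0467). The median change over the 40 genes was 0.96, against -0.049 over all genes, and signals did not overlap for 17 genes that were higher and 4 that were lower, against 20.6% and 21.9% of all genes. Median centring of the arrays gave 635 higher and 281 lower calls over all genes, against 1463 and 1079 without it, and 7 of the 40 rose. The calls of Klf4, Cebpb and Hspb1 held with any array left out, but that of Hspb1 was lost with median centring of each array. Those of Fosl2, Klf2 and Bag3 were lost without several of the arrays, the highest adjusted p being 0.132 for Fosl2 without E12.5 C (2.14), 0.0859 for Klf2 without E12.5 C (2.58) and 0.124 for Bag3 without E12.5 C (0.72) or E14.5 A (0.55). Without E14.5 A Klf2 changed by 1.64 and was still called.

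Deviations of arrays with the same letter correlated in the comparisons that involve E12.5, weakly for B (r of 0.133 and 0.121). With the letter as a replicate block 17 genes rose (14.8% of all genes) and 2 fell (11.9%) in E14.5 against E12.5. The genes added were Jund, Atf3, Ier3, Klf6, Nr4a1, Zfp36, Myc, Cebpd, Socs3, Rhob and Hspa1a, with adjusted p from 0.000256 for Klf6 to 0.0272 for Hspa1a, and Gadd45a and Hsph1 fell (adjusted p = 0.0117 and 0.0457). What a letter stands for is not given. Leaving out 1 array also added calls: Atf3 (2.64), Socs3 (1.80), Rhob (1.65) and Hspa1a (3.16) without E14.5 C, Klf6 without E11.5 A or E12.5 A (1.47 and 1.87), Fosb without E11.5 B (1.46), Myc without E14.5 B (1.09) and a fall of Hsph1 without E11.5 C (-0.64). The count of genes that rose was 3 without E12.5 B or E12.5 C and 10 without E14.5 C.

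No gene was called in E12.5 against E11.5, in either direction, where 3.11% of all genes rose and 0.441% fell. In limma 4 of the 40 had an unadjusted p under 0.05, against 1850 of all 11575 genes tested. The median change was 0.51, against 0.044 over all genes, and 31 of the 40 changes were positive. Fosb, Atf3, Klf2, Klf4 and Nfkbia had all E12.5 arrays above all E11.5 arrays (15.8% of all genes), and Dnaja1, Hsp90aa1 and Hspd1 had them below (7.75%). The largest change was that of Fosb (1.93 ± 0.66, adjusted p = 0.182), and the lowest adjusted p was that of Klf4 (1.12 ± 0.32, 0.106). With the letter as a replicate block Klf6 was called (1.01, adjusted p = 0.00662), where 3.92% of all genes rose. Fos was called without E11.5 A (2.46, adjusted p = 0.0438), and without the 3 A arrays Atf3 and Klf6 were, against 1.94% of all genes.

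The arrays of a stage differed more in these genes than in the array as a whole. The SD within stages, pooled over the 3 stages on the log2 scale, had a median of 0.656 over the 40 genes, 0.747 over the immediate early genes and 0.339 over the heat shock genes, against 0.222 over all genes tested. Of the 40 genes 24 lay in the top 10% of all genes, where the SD is 0.467 or more. They were 22 of the 29 immediate early genes and, of the heat shock genes, Hspa1a and Hspa1b. The highest SDs were those of Junb (1.84), Maff (1.57), Fosl2 (1.43), Hspa1a (1.31) and Zfp36 (1.17). The lowest were those of Hspe1 (0.119), Hspd1 (0.131), Dnaja1 (0.140) and Hsp90aa1 (0.149), all below the median of all genes.

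Differences of more than 2-fold between the highest and the lowest array of a stage were found for 18 of the 40 genes at E11.5, 13 at E12.5 and 26 at E14.5, against 8.60%, 5.94% and 8.19% of all genes. The median of that ratio was 1.84, 1.58 and 2.85 over the 40 genes at the 3 stages, and 1.31, 1.26 and 1.32 over all genes. Immediate early genes made up 17 of the 18, all 13 and 22 of the 26.

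**Figure D4:**
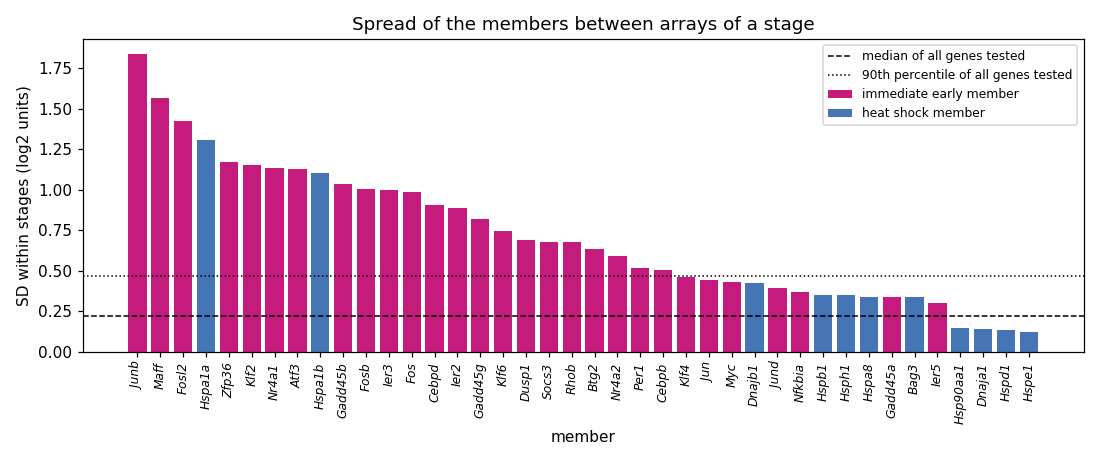
SD within stages of each tested gene (y axis: log2 units, pooled over 3 stages of 3 arrays), with the median (dashed) and 90th percentile (dotted) of all genes tested. The immediate early genes fill the left side, led by Junb at 1.84, and the heat shock genes other than Hspa1a and Hspa1b lie at 0.423 or less.

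The array that was high was mostly the one lettered A. It gave the highest signal of the stage for 32 of the 40 genes at E11.5, 27 at E12.5 and 36 at E14.5, against 36.5%, 38.3% and 40.4% of all genes. Among the 29 immediate early genes these counts were 28, 22 and 29, and among the 11 heat shock genes 4, 5 and 7. For 24 of the 40 genes A was the highest at all 3 stages, against 1446 of the 11575 genes tested, and 22 of those were immediate early genes. The lowest array was mostly B at E11.5 (24 of 40) and C at E12.5 (33 of 40) and E14.5 (38 of 40).

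In size, the median deviation of the immediate early genes from their stage mean was 0.74, -0.43 and -0.16 on the E11.5 arrays, 0.34, 0.11 and -0.40 at E12.5 and 1.02, -0.17 and -0.85 at E14.5, on the log2 scale. Over all genes tested it lay between -0.0234 and 0.0185. Quantile normalization gave nearly the same picture, with A highest for 31, 26 and 36 of the 40 genes. Centring each array on its median raised A for the array as a whole, with A highest for 70.0%, 85.8% and 65.9% of all genes and for 38, 36 and 39 of the 40. Of 72 tested probe sets of the 42 genes A was the highest in 54, 41 and 62 at the 3 stages.

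**Figure D5:**
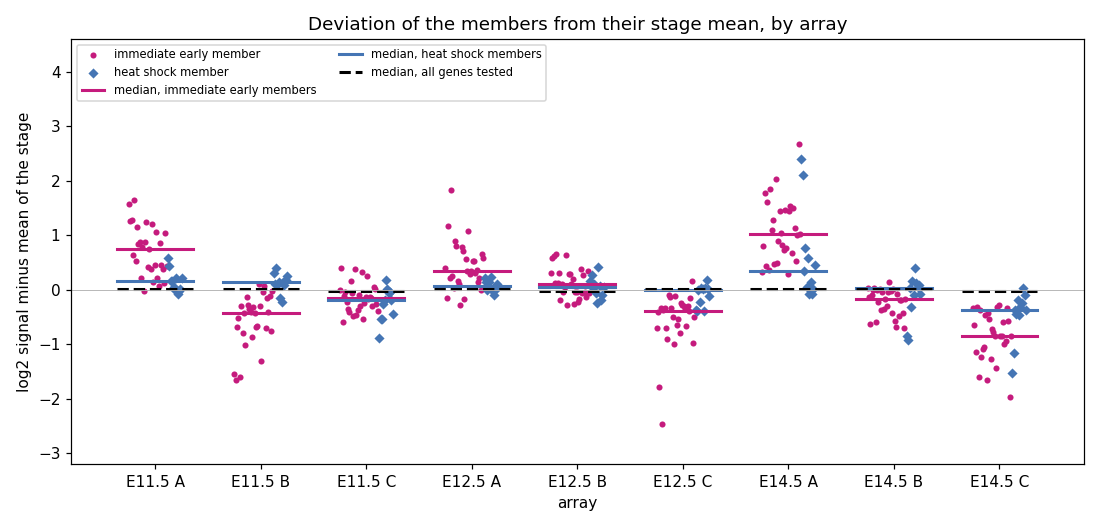
Deviation of each tested gene from its stage mean on each array (y axis: log2 units), with the medians of the immediate early genes, the heat shock genes and all genes tested. The immediate early genes are shifted up on the A arrays, most on E14.5 A (median 1.02), and down on E11.5 B, E12.5 C and E14.5 C, while all genes tested stay near 0.

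Markers of other cells also differed between these arrays. Of 14 tested cartilage markers all were highest on E14.5 A, where their summed signal, over the list of 15, was 99208, against 22876 on E14.5 B and 11212.5 on E14.5 C. At E11.5 and E12.5 A was the highest for 5 and 1 of the 14, with sums of 16612 to 20362 and 29498 to 35993. The summed signal of the 5 red blood cell markers with a probe set, 2 of them tested, was 3179.8, 647 and 535 on the E11.5 arrays, 2048, 907 and 390.5 at E12.5 and 218, 635 and 151 at E14.5, so that it was highest on A at E11.5 and E12.5 and on B at E14.5. Skeletal muscle markers were highest on A for 5, 10 and 5 of 13, and macrophage, endothelial, nerve and epidermal markers for at most 3 of 4 or 5 tested at any stage. No marker list held a gene that was below the floor on all 9 arrays. In E14.5 against E11.5, 9 of 14 cartilage, 6 of 13 muscle, 4 of 5 endothelial, 2 of 4 macrophage, 1 of 4 nerve and 3 of 5 epidermal markers rose. In the same comparison 1 muscle, 1 nerve and 1 epidermal marker fell, as did 1 of the 2 tested red blood cell markers. Over all genes tested 22.9% rose and 17.7% fell. The A arrays were also those with the lowest median signal and the lowest Actb 3′ to 5′ ratio of their stage. The part of these marker and quality differences in the results above was not tested.

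Genes of the same responses outside the 42 were listed as well. Of 33 other immediate early genes 30 were tested. In E14.5 against E11.5 10 rose and 2 fell, with a median change of 0.85, where 22.9% of all genes rose and 17.7% fell. Bhlhe40, a circadian repressor, rose by 3.16 ± 0.96 (SE, adjusted p = 0.0256), Csrnp1, a nuclear AXIN1-regulated protein, by 1.67 ± 0.53 (adjusted p = 0.0313), and Dusp6, a phosphatase of the MAP kinase ERK, fell by 1.67 ± 0.27 (adjusted p = 0.00124). The other that fell, its relative Dusp4, named after its values were seen, fell by 1.53 ± 0.27 (adjusted p = 0.00202). Bhlhe40 had 21.8, 113 and 10.1 at E11.5, with A and C below the floor of 22.7, and 1655, 163 and 154 at E14.5. Csrnp1 had 187, 233 and 149 at E11.5 and 1672, 340 and 363 at E14.5. For both Bhlhe40 and Csrnp1 E14.5 A was far above the other E14.5 arrays. Egr1, an immediate early zinc finger factor that is also a regulator of tendon matrix genes, had 15290.4, 1004 and 2213 at E11.5, 19279, 12428 and 6203 at E12.5 and 24733, 20231 and 16610.4 at E14.5 and rose by 2.64 ± 0.83 (adjusted p = 0.0300). Its arrays followed those of Fos, with A high at all 3 stages and E11.5 B low, and E14.5 and E11.5 did not overlap. A was the highest array for 19, 19 and 27 of these 30 genes at the 3 stages.

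Of 39 other heat shock proteins and co-chaperones 35 had a probe set, and all 35 were tested. In E14.5 against E11.5 6 rose and 16 fell, with a median change of -0.37, where 22.9% of all genes rose and 17.7% fell. The largest rises were those of the small heat shock protein Cryab (3.14 ± 0.37, adjusted p = 0.000205), the J-domain protein Dnaja4 (1.59 ± 0.27, 0.00154), the Hsp70 family member Hspa2 (1.40 ± 0.22, 0.000993) and the small heat shock protein Hspb8 (1.05 ± 0.17, 0.00115). Those that fell include subunits of the cytosolic chaperonin (Cct2, Cct3, Cct4, Cct5, Cct7, Cct8 and Tcp1), named after their values were seen, by 0.37 to 0.65. A was the highest array for 21, 20 and 17 of the 35.

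Of 11 regulators of both responses 8 were tested. Elk4, a partner of serum response factor, rose by 0.95 ± 0.19 (adjusted p = 0.00403) in E14.5 against E11.5, and Hsf2, a heat shock factor, fell by 0.77 ± 0.22 (adjusted p = 0.0208). Srf itself, chosen after its values were seen, had 2273, 876 and 1069.5 at E11.5, 2159.6, 1212 and 1154 at E12.5 and 2420.0, 1262 and 833 at E14.5, with A high at each stage and a change of 0.09 ± 0.45 (adjusted p = 0.9). Of 11 tested genes of the endoplasmic reticulum stress response, a separate program for unfolded proteins, Dnajb9 (1.18 ± 0.34, adjusted p = 0.0192) and Xbp1 (0.67 ± 0.15, 0.00662) rose, and Sdf2l1 (-0.79 ± 0.25, 0.0322) and Asns (-0.50 ± 0.17, 0.044) fell. Array A was the highest for 9, 4 and 5 of these 11 genes at the 3 stages. Over all genes tested 22.9% rose and 17.7% fell in E14.5 against E11.5.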

How the data were processed

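Total RNA of sorted Scx-GFP-positive forelimb cells was amplified and hybridised to Affymetrix Mouse Genome 430 arrays, 3 per stage. The deposited table holds intensity values, the linear MAS5 signal of 45101 probe sets on 9 arrays; MAS5 and Affymetrix Expression Console 1.1 are named in the submitters' processing notes. The trimmed mean of every array, leaving out the top and bottom 2% of signals, is 500.0, and no further normalization was applied. Gene symbols came from the platform annotation, where 34945 probe sets had 1 symbol, 932 had several and 9160 were not listed. Each gene was represented by its brightest probe set (mean log2 over the arrays), and by an _x_at one only where there was no other.

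Signals below 22.7 (the 25th percentile) were set to it before log2, and a gene was tested if it exceeded 90.6 (the median) on at least 3 arrays. All stages were fitted together in limma 3.58.1 (R 4.3.3), with empirical Bayes moderation and Benjamini-Hochberg adjustment over the 11575 genes, and called at an adjusted p under 0.05. Tables were handled in Python 3.11.15 with pandas 2.3.3. The steps were tested on simulated data. The 42 genes and the related lists were chosen with earlier results of these data known. Array values are given for genes called in any of the comparisons or in the top 10% of spread. From each related list up to 4 called genes with the largest change in E14.5 against E11.5 are named, and Egr1.

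Arrays of a stage are named by the letter in their label, and what it stands for is not given. Deviations from stage means correlated between arrays of the same letter with r of 0.520, 0.133 and 0.332 (A, B and C) in E12.5 and E11.5, 0.310, 0.121 and 0.289 in E14.5 and E12.5, and 0.313, -0.0052 and 0.238 in E14.5 and E11.5. The first 2 sets are all above 0.1, so the letter was taken to pair the arrays there, and fits with it as a block are given beside those results. Alternatives covered the floor, the filter, 2 other scalings, the choice of probe set, the prior, array weights, the letter block, a 3′ to 5′ covariate and leaving arrays out.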

Additional observations from a re-analysis of the deposited data

How the results depend on the processing

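In E14.5 against E11.5, 13 of the 25 calls held under all 22 alternatives run: Fosb, Fosl2, Atf3, Klf2, Klf4, Klf6, Gadd45a, Cebpb, Cebpd, Socs3, Rhob, Hsph1 and Hspb1. The count of genes that rose (21) was 13 with no filter on low signals, which tests more genes, and 15 to 29 with 1 array left out. Over all genes 2646 of 11575 rose as reported and 2586 of 18193 with no filter. With 1 array left out 2306 to 2576 rose. The count that fell (4) was 2 with median centring of each array, 2 without the letter A arrays and 3 to 5 with 1 array left out. Of all genes 2045 fell as reported, 1070 with that centring, 1260 without the letter A arrays and 1536 to 1959 with 1 array left out. For E14.5 against E12.5, 2 of the 6 calls held under all 22 alternatives, those of Klf4 and Cebpb. The count that rose there (6) was 10 with the floor at the median of all signals, 3 with no filter, 17 with the array letter as a replicate block and 3 to 10 with 1 array left out. The counts over all genes were 1463 as reported and, in that order, 1589, 1299 of 18193, 1717 and 1010 to 1502. The count that fell (0) was 1 with quantile normalization, 1 with the trended and robust prior, 2 with array weights, 2 with the replicate block, 1 with the 3′ to 5′ covariate and 0 to 1 with 1 array left out. All-gene counts were 1079 as reported and, in that order, 1465, 1350, 1277, 1374, 1424 and 554 to 1097. For E12.5 against E11.5 the count that rose (0) was 1 with the replicate block, 2 without the letter A arrays and 0 to 1 with 1 array left out. Here 360 of all genes rose as reported and, in that order, 454, 225 and 113 to 423. The F-test count (19) was 5 with no filter and 11 to 20 with 1 array left out. That test called 3904 of 11575 genes as reported, 3581 of 18193 with no filter and 3034 to 3614 with 1 array left out. Beyond the changed number of genes or arrays, the cause was not tested.

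In E14.5 against E11.5, where same-letter arrays did not all deviate together, the replicate block gave 29 genes that rose and 4 that fell. Over all 11575 genes tested 2895 rose and 2367 fell with the block. The genes it added were Junb, Ier5, Dusp1, Zfp36, Myc, Gadd45g, Maff and Hspa1b. Not every array correlated best with its own letter. The second Fosl2 probe set, chosen after seeing the data, showed no rise (-0.14 ± 0.39, adjusted p = 0.83 in the fit of every probe set). Median centring moved the median change of all genes to -0.20 and quantile normalization to -0.11 in this comparison, so changes of that size have no settled direction. With 1 array left out, 1020 results of single genes kept their side of the threshold, 24 calls were gained and 36 lost. With 3 arrays per stage, SEs of 0.13 to 1.20 on the log2 scale bound what could be called. Low signals such as those of Fosl2, Atf3, Junb and Hspa1a rest on values near the floor.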
